A study of Mus musculus with 6 samples.

Results

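Malat1, Neat1, Gm42418 and AY036118 are 4 RNAs without a protein product, and they were followed here as 4 of the 27998 genes counted in mouse invariant natural killer T (iNKT) cells. They were chosen by gene symbol, on the strength of how their UMIs differed between organs and how they moved with the total UMIs and the mitochondrial share of a cell in these same libraries. Those levels and relations are therefore given as a description, with no test. iNKT cells are T cells with a largely fixed T cell receptor that bind lipid presented by CD1d. The libraries came from wild-type (WT) C57BL/6 mice of 5 weeks, and each held iNKT cells of liver, spleen or lymph node, with 2 libraries per organ. CD8 and B220 positive cells had been removed with beads, after which cells positive for TCR-β and the CD1d tetramer were sorted. The groups therefore differ by organ only, as far as the labels go, and no cell received a treatment. The study calls the 2 libraries of an organ biological repeats, while the number of mice behind a library is not given in the sources used here.

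Malat1 and Neat1 are long noncoding RNAs that stay in the nucleus. Malat1 gathers in nuclear speckles, where splicing factors are stored, and is among the most abundant noncoding RNAs of many cell types. Neat1 is the scaffold of paraspeckles, bodies beside the speckles that hold RNA-binding proteins such as Nono and Sfpq. Gm42418 and AY036118 lie in a copy of the ribosomal RNA repeat, so that reads from ribosomal RNA can be counted under these names. They lie on opposite strands, so they cannot both have the sense of ribosomal RNA, and the strand setting of the counts is not given. Ribosomal RNA is made in the nucleolus by RNA polymerase I and carries no poly(A) tail when mature, whereas the 3′ kit used here primes on runs of A. The labels name the molecule as nuclear RNA, but the protocol describes whole sorted cells and mitochondrial transcripts were present in every library, so which fraction was loaded was not settled.

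The genes sit at 2 places in the genome (coordinates and transcripts of GENCODE vM21 on GRCm38, which is mm10). Malat1 (ENSMUSG00000092341, chr19:5795690-5802672, minus strand) and Neat1 (ENSMUSG00000092274, chr19:5824708-5845478, minus strand) are neighbours 22 kb apart. Gm42418 (ENSMUSG00000098178, chr17:39846958-39848788, plus strand) and AY036118 (ENSMUSG00000105361, chr17:39847113-39848035, minus strand) overlap. AY036118 is, base for base, the reverse complement of positions 156 to 1078 of the Gm42418 transcript, which is 50.4% of it. All 4 are annotated as lincRNA, and their exons have no coding part. Within the overlap the counts of the pair can be told apart only by strand, and how reads from other copies of the ribosomal repeat were assigned is not given in the sources used here, so the levels of these 2 RNAs are uncertain.

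The transcripts differ in the runs of A on which the kit could prime, and these stretches are shown for that reason. Among 141767 transcripts of GENCODE vM21, 13.8% hold at least 1 run of 8 or more A. The Malat1 transcript (6983 bases, 42.5% GC) has 1 such run, 12 A long, from position 6674. The short Neat1 form Neat1-202 (3004 bases) has none, and neither have the long form Neat1-201 (20771 bases), Gm42418 (1831 bases, 60.2% GC) and AY036118 (923 bases, 54.4% GC), whose longest runs hold 5, 7, 6 and 4 A. The windows below, 5′ to 3′ on the strand of each gene, show in capitals the longest run of A, or the first of them where there are several (Malat1 chr19:5795938-5796049, Gm42418 chr17:39847117-39847222, AY036118 chr17:39847324-39847427).
Malat1-201: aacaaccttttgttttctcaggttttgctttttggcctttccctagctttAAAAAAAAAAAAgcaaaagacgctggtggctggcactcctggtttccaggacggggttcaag
Gm42418-201: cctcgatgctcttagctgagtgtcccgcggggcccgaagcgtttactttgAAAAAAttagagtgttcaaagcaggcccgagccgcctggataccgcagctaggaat
AY036118-201: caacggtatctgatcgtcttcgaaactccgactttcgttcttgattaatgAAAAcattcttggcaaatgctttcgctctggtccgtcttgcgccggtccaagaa

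The hexamer AATAAA, the usual signal for cleavage and polyadenylation, stands in the last 100 bases of 28.4% of the transcripts. It lies 22 bases from the annotated end of Malat1 and 20 bases from the end of Neat1-202, and was found nowhere in Gm42418 or AY036118 on their own strands. The last 100 bases of both transcripts are shown with this hexamer in capitals (Malat1 chr19:5795690-5795789, Neat1 chr19:5842307-5842406). The end of Neat1-201 has no such hexamer in its last 100 bases. These matches describe the annotated sequence and do not say where the reads started.
Malat1-201: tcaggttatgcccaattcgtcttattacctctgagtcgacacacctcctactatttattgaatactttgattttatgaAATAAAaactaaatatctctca
Neat1-202: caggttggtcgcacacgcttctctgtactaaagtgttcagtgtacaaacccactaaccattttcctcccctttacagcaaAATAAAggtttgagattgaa

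A total of 16532 cells were kept (5662 liver, 5384 spleen and 5486 lymph node cells). Libraries differed in depth, with medians of 3592 and 2880 UMIs per cell in liver, 1724 and 1554 in the spleen and 1730.5 and 1470 in lymph node. Mitochondrial transcripts took 2.79% and 2.85% of UMIs in liver, 4.27% and 4.87% in the spleen and 4.65% and 5.26% in lymph node. Of the cell barcodes, 148 occurred in 2 or more libraries. Xist was counted in the liver and spleen libraries and was at 0 in both lymph node libraries, which were the only ones with Y-chromosome UMIs, so organ and sex cannot be told apart in any comparison with lymph node. Of the 5 T cell and iNKT identity genes in the matrix, all were detected in every library. Levels are given as CPM, UMIs of a gene per 1000000 UMIs of the genes kept, after 190 genes for ribosomal proteins and haemoglobins were left out of the total. Log2 folds come from the edgeR fit of all genes. Their standard error (SE) was derived as the absolute log2 fold divided by the square root of the quasi-likelihood F.

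Malat1 was the gene with the most UMIs in each of the 6 libraries and took 2.44% to 3.25% of all UMIs. Its level was 40247 and 36665 CPM in liver, 36447 and 38857 in the spleen and 45421 and 41735 in lymph node. Lymph node was highest, and the ranges of liver and spleen overlapped. The log2 fold of liver over spleen was -0.05 (SE 0.14), that of liver over lymph node -0.24 (SE 0.14) and that of spleen over lymph node -0.19 (SE 0.14), each of n = 2 libraries per organ. A UMI of Malat1 was seen in all cells except 2 of the second lymph node library. The median cell held 100 and 75 Malat1 UMIs in liver, 48 and 49 in the spleen and 59 and 49 in lymph node. Most Malat1 UMIs per cell were thus counted in the deeper liver libraries, while the share of Malat1 was not the highest there. When cells were thinned to 1000 UMIs each, the mean was 28.5 and 27.4 Malat1 UMIs in liver, 28.5 and 31.3 in the spleen and 35.4 and 33.7 in lymph node. In the cells with 1500 to 2500 UMIs, where the organs are closer in depth, the direction turned, with log2 folds of 0.22 for liver over spleen and 0.090 for liver over lymph node. The fold of liver over spleen also changed sign with plain CPM scaling (0.03) and without the second spleen library (0.02).

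Neat1 had far fewer UMIs, 118 to 524 per library. It stood at 75.1 and 71.7 CPM in liver, 45.4 and 33.3 in the spleen and 100.5 and 107.9 in lymph node. The organs ranked lymph node, liver, spleen, and the libraries of no 2 organs overlapped. The log2 fold was 0.82 (SE 0.14) for liver over spleen, -0.57 (SE 0.13) for liver over lymph node and -1.38 (SE 0.14) for spleen over lymph node. A Neat1 UMI was found in 16.4% and 13.8% of liver cells, 6.08% and 4.18% of spleen cells, and 12.5% and 12.2% of lymph node cells. At 1000 UMIs per cell these shares became 4.96% and 4.94%, 3.29% and 1.85%, and 7.42% and 8.05%, so that liver came first in the share of cells only before thinning. No cell type that lacks these nuclear RNAs was sorted here, so a background share from free RNA could not be given.

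Gm42418 was highest in liver, with 437.2 and 300.6 CPM. Spleen held 90.5 and 74.0 CPM and lymph node 77.7 and 65.1 CPM, and these 2 organs overlapped. The log2 fold was 2.08 (SE 0.15) for liver over spleen and 2.30 (SE 0.15) for liver over lymph node, against 0.22 (SE 0.16) for spleen over lymph node. The 2 liver libraries themselves differed, by more than the libraries of the other organs did. Over the 17 alternative settings, the fold of liver over spleen kept to 1.82 to 2.31 and that of liver over lymph node to 2.04 to 2.53. Cells with a Gm42418 UMI made up 61.6% and 44.5% of liver cells, and at 1000 UMIs per cell 24.4% and 18.0%, against 6.11% and 4.22% in the spleen and 5.14% and 4.87% in lymph node.

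AY036118, on the opposite strand, showed the larger liver excess. It stood at 226.2 and 165.8 CPM in liver, at 18.4 and 20.3 CPM in spleen and at 23.2 and 21.4 CPM in lymph node. Liver lay above the other 4 libraries, while spleen and lymph node came close, with counting intervals that overlapped (70 and 72 UMIs in spleen, 85 and 77 in lymph node). The log2 fold was 3.26 (SE 0.16) for liver over spleen, 3.07 (SE 0.155) for liver over lymph node and -0.19 (SE 0.20) for spleen over lymph node. At 1000 UMIs per cell, 13.9% and 10.4% of liver cells held an AY036118 UMI, 1.35% and 1.45% of spleen cells and 1.98% and 1.23% of lymph node cells.

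**Figure D1:**
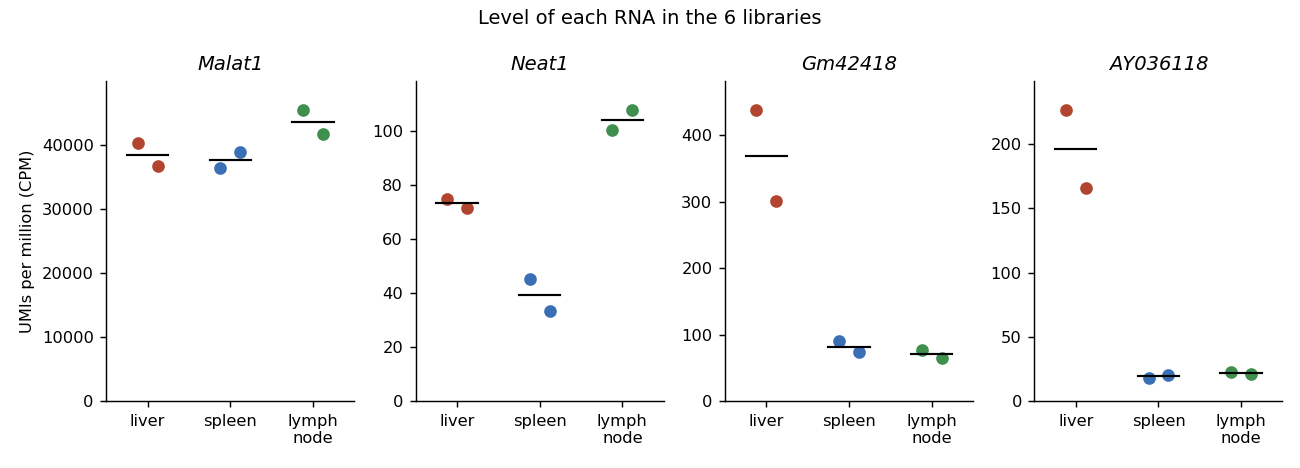
Level of each RNA in CPM (y axis) in the 3 organs, where each point is 1 library and the bar is the mean of the 2 libraries of an organ. Liver lies above both other organs for Gm42418 and AY036118, lymph node is highest for Neat1, and the liver and spleen libraries overlap for Malat1.

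Over all genes, the organs differed widely, which sets the scale for these contrasts. Of 10172 genes, edgeR called 2620 for liver against spleen (25.8%), 3827 for liver against lymph node (37.6%) and 1865 for spleen against lymph node (18.3%). The libraries of liver and spleen did not overlap for 3 of the 4 RNAs, those of liver and lymph node for 4, and those of spleen and lymph node for 3. With 2 libraries per organ this was common, and held for 63.3%, 70.2% and 57.5% of the 10172 genes in the same order. The RNAs were chosen on these contrasts, so nothing is read from the counts. The 3 comparisons share libraries and are not independent. The fold of liver over spleen lay above that of 99.8% of the genes for AY036118, 99.5% for Gm42418 and 93.7% for Neat1, and above that of 43.7% for Malat1.

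The share of AY036118 in the UMIs of the opposed pair was highest in liver, which describes the same UMIs by organ that chose these RNAs and has no test. AY036118 made up 34.1% (95% exact interval 32.7% to 35.5%) and 35.6% (33.8% to 37.3%) of the UMIs of the pair in the liver libraries. It made up 16.9% (13.4% to 20.8%) and 21.6% (17.3% to 26.4%) in spleen, and 23.0% (18.8% to 27.6%) and 24.8% (20.1% to 29.9%) in lymph node. These intervals cover counting error only and not the spread between samples. Both liver values stood above the 4 others. Within a library the 2 RNAs were not found together more often than their shares would give in liver, where 2.96% and 1.65% of cells at 1000 UMIs held both and the products of the shares were 3.40% and 1.88%. In spleen and lymph node only 1 to 4 cells per library held both. Across thinned cells the Spearman correlation of the pair lay between -0.03 and 0.03 in the 6 libraries, which describes sparse counts and is given without a p.

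Cells of a library differed in their Malat1 content. After thinning to 1000 UMIs, the variance of Malat1 counts over cells was 6.66 to 9.58 times their mean, where counting error alone gives 1. For Gm42418 the ratio was 1.4 and 1.5 in spleen and between 1.0 and 1.1 in the liver and lymph node libraries, for AY036118 it lay between 0.98 and 1.08 and for Neat1 between 0.98 and 1.04. These RNAs had means of at most 0.286 UMIs per thinned cell, and at such means a ratio near 1 does not show that cells were alike. Without thinning, 3 and 4 spleen cells held 5 or more Gm42418 UMIs, 21 and 28 UMIs in all of the 345 and 262 in these libraries, and these cells had median totals of 1509 and 1795 UMIs. In liver 50 and 10 cells reached 5 UMIs, with median totals of 6429 and 7394, and in lymph node none did.

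RNA of other cell types also differed between the organs. The 7 erythroid and platelet markers summed to 563.6 and 875.8 CPM in liver, with 6 and 7 of the 7 detected, and to 0.28 CPM at most in the other libraries, where 0 or 1 of the 7 was detected. Nearly all of it was haemoglobin RNA, and 1 cell of the first liver library held 91.1% of the haemoglobin UMIs of that library, while the top cell of the other liver library held 32.4%. Cells with a haemoglobin UMI were 11.8% and 5.70% of the liver cells. In the others, Gm42418 stood at 283.7 and 201.4 per 1000000 UMIs and AY036118 at 147.5 and 109.6, against 280.8 and 200.2 and 145.3 and 110.4 over all cells. The 8 hepatocyte markers summed to 19.1 and 18.8 CPM in liver and 6.40 to 14.4 elsewhere. Of these markers, albumin (Alb) was at 0.29 and 0.17 CPM in liver and 0 elsewhere, and Ttr at 0 in every library. The 5 B cell markers in the matrix summed to 2.54 to 21.5 CPM and the 8 myeloid ones to 203.1 to 368.1 CPM, of which Cst3 alone took 194 to 273. Lyz2, the lysozyme of myeloid cells, was at 109 CPM in the second lymph node library and at 0.85 to 18.2 CPM in the others. A cluster of 24 cells led by Lyz2, H2-Aa and Cd79a was kept under no name, and the liver libraries gave 4 and 12 of them, the spleen libraries 3 and 0 and the lymph node libraries 1 and 4. The CD8 T cell markers Cd8a and Cd8b1 summed to at most 7.16 CPM. The part of these cell types in the liver levels was not tested.

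Within each library, cells were then divided into quartiles by their total UMIs, and levels were taken per 1000000 non-mitochondrial UMIs. The share of Malat1 fell from the cells with fewest to those with most UMIs in all 6 libraries. It went from 34986 to 19072 in the first liver library and from 34596 to 17886 in the other, from 38938 to 17586 and from 44296 to 17878 in spleen, and from 48137 to 24914 and from 45887 to 23510 in lymph node. The log2 ratio of the top to the bottom quartile had a median of -0.96 over the libraries (range -1.31 to -0.88, SD 0.16, n = 6), and the 2 spleen libraries had the steepest values. Malat1 UMIs per cell did not fall. They were 1.22 to 1.67 times as many in the top as in the bottom quartile, while the total UMIs rose 2.37 to 2.63 times. The total of a cell is the denominator of the share, which ties both measures together. Within iNKT1-like cells alone the median log2 ratio was -0.63, in cells thinned to 1000 UMIs -0.81, and between the top and bottom 10% of cells -1.46.

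The median ratios of the other RNAs were closer to 0. Neat1 had a negative log2 ratio in 6 of 6 libraries, with a median of -0.29 and values from -0.60 to -0.11. In cells thinned to 1000 UMIs its median was -0.17 (range -0.51 to 0.25), negative in 5 of 6 libraries. Between the top and bottom 10% of cells it was -0.58 (range -1.19 to 0.50), also negative in 5 of 6. Gm42418 had a median of -0.16 (range -0.34 to 0.14) and was negative in 5 of 6 libraries, and its UMIs per cell rose with the total in all 6. In the first liver library Gm42418 stood at 289.4, 302.6, 287.4 and 282.4 per 1000000 non-mitochondrial UMIs from the lowest to the highest quartile. AY036118 had a median of -0.42 (range -1.09 to 0.41) and was negative in 5 of 6, with 8 to 31 UMIs per quartile behind the values of spleen and lymph node. In cells thinned to 1000 UMIs its median was -0.46 (range -0.68 to -0.22), negative in 6 of 6 libraries. Between the top and bottom 10% of cells it was -0.98 (range -1.385 to -0.43), also negative in 6 of 6. Within iNKT1-like cells alone it was -0.34 (range -1.30 to 1.23), negative in 4 of 5. The first liver library, with 270 to 580 UMIs per quartile, had -0.51 (counting interval -0.72 to -0.29). The other had -0.16, with an interval of -0.44 to 0.13. In each quartile both liver libraries stood above the 4 others for Gm42418 and for AY036118.

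**Figure D2:**
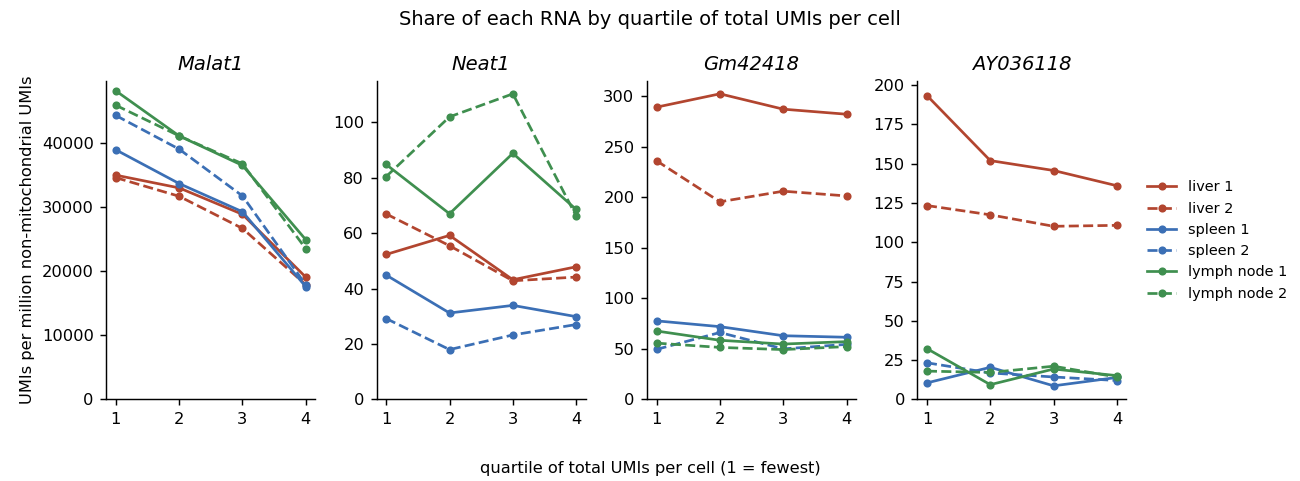
UMIs of each RNA per 1000000 non-mitochondrial UMIs (y axis) in the 4 quartiles of total UMIs per cell (x axis, 1 holds the cells with fewest), where each line is 1 library, drawn solid for the first and dashed for the other library of an organ. Malat1 falls across the quartiles in all 6 libraries, and Gm42418 and AY036118 are higher in liver at every quartile.

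The mitochondrial share of a cell was taken next. From the quartile of lowest to that of highest mitochondrial share, Malat1 had a log2 ratio of -0.19 and 0.01 in liver, -0.28 and -0.25 in the spleen and -0.15 and -0.18 in lymph node. It thus was lower in the highest quartile in 5 of 6 libraries, with a median of -0.19 (SD 0.10). Neat1 went the other way, with -0.09 and 0.59 in liver, 0.23 and 0.86 in the spleen and 0.51 and 0.25 in lymph node (median 0.38, SD 0.33). Of these 6 values, only those of the other liver library (95% exact interval 0.20 to 0.99) and of the first lymph node library (0.06 to 0.97) had a counting interval above 0. Gm42418 had a median of -0.03 (SD 0.30) and was negative in 5 of 6 libraries, with 0.48 in the second lymph node library. AY036118 had a median of 0.02 (SD 0.58) and was positive in 4 of 6. The median of both RNAs changed sign in cells thinned to 1000 UMIs, to 0.07 and -0.46. Across organs, liver had the highest Gm42418 and AY036118 and the lowest mitochondrial share.

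**Figure D3:**
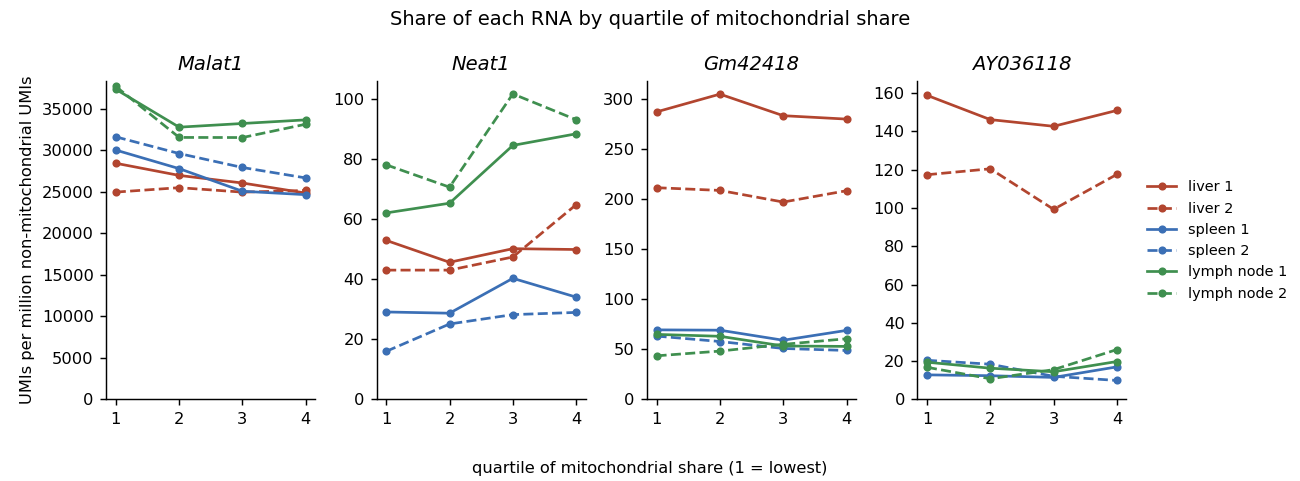
UMIs of each RNA per 1000000 non-mitochondrial UMIs (y axis) in the 4 quartiles of mitochondrial share (x axis, 1 holds the cells with the lowest share), where each line is 1 library, drawn solid for the first and dashed for the other library of an organ. Malat1 is lower in quartile 4 than in quartile 1 in 5 of 6 libraries, as is Gm42418, while AY036118 is higher there in 4 of 6.

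The 45 barcodes with over 15% mitochondrial UMIs, which were left out of every other value here except the comparison over all deposited barcodes, held a higher share of Malat1. Malat1 took 94081 per 1000000 non-mitochondrial UMIs in the 5 such barcodes of liver, 63753 in the 20 of spleen and 81544 in the 20 of lymph node, against 25927, 27761 and 33708 in the cells kept. Neat1 had 5, 4 and 2 UMIs in these barcodes, or 1038, 243.8 and 155.6 per 1000000 non-mitochondrial UMIs, against 49.4, 29.2 and 80.6 in the cells kept. Gm42418 and AY036118 had 0 to 3 UMIs each there, too few to compare. For Malat1 these barcodes thus lay above the cells kept, whereas within the cells kept the highest mitochondrial quartile was the lower one in 5 of 6 libraries. These barcodes were also shallow, with 4815, 16407 and 12852 non-mitochondrial UMIs in all over the 5, 20 and 20 of them. The 5662 liver cells kept, for example, held 19322168. The share of Malat1 was also highest in the kept cells with fewest UMIs, and the part of depth in this contrast was not tested.

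The cells were clustered anew to see how the RNAs varied among classes of iNKT cells, with names given from marker genes. The clusters were made from the same cells and counts, so class differences are a description. Malat1 was lowest in cycling-like cells, which carry genes of the cell cycle, with 17615 and 14947 CPM in liver, 11150 and 12827 in the spleen and 14274 and 14896 in lymph node. In iNKT1-like cells it stood at 45014 and 42333, 43980 and 47272, and 57574 and 52139 CPM in the same order. This name went to clusters left without another name, where iNKT1 markers such as Tbx21 and natural killer receptors had a positive median log2 fold. That median also had to exceed the median of iNKT2 markers. It was 0.75 in the cluster with most liver cells and only 0.21 in the one with most spleen cells. Cycling-like cells also had the highest depth, with medians of 4344 to 8158 UMIs against 1126 to 3536 in iNKT1-like cells. NF-kB-like cells of liver (28433 and 27421 CPM) and RTE-like cells of spleen (25587 and 28370 CPM), which resemble recent thymic emigrants, lay between these classes.

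Gm42418 and AY036118 stood higher in liver in each class that could be compared. NF-kB-like cells numbered 18 in each lymph node library and Gzma-like cells 9 in 1 of them, too few for a value there. In classes with 20 or more cells, Gm42418 ranged from 158.8 to 487.3 CPM in liver, from 16.8 to 188.4 in spleen and from 37.7 to 125.1 in lymph node, and within each class both liver libraries stood above all others with a value. AY036118 ranged from 124.9 to 299.9 CPM in liver and did not exceed 83.4 CPM elsewhere. Within iNKT1-like cells alone the log2 fold of liver over spleen was 2.14 for Gm42418 and 3.34 for AY036118, close to the 2.08 and 3.26 over all cells. Different clusters hold most iNKT1-like cells of the organs, since 1 of them held 2044 and 1764 liver cells and the other 1762 and 1849 spleen cells, and lymph node had only 117 and 206 cells of this class. Neat1 kept no single order over all classes, although Gzma-like cells stood above iNKT1-like cells in the 5 libraries with a value for both. In lymph node it stood at 131.9 and 154.0 CPM in iNKT17-like cells, the class of Il23r and Ccr6, at 132.0 and 81.8 in iNKT1-like cells (15 UMIs each) and at 81.7 and 85.9 in the cells of unnamed clusters, with 150.8 from 4 UMIs in Gzma-like cells. Of these 1337 and 1324 unnamed lymph node cells, 1336 and 1320 belonged to a single cluster, led by Nrgn, Gm17056 and Pdcd1. In spleen Neat1 was at 97.5 and 90.7 CPM in iNKT17-like cells (9 and 6 UMIs), 98.3 and 96.2 in Gzma-like cells (10 and 8 UMIs) and 41.1 and 24.3 in iNKT1-like cells. In liver it was 162.4 and 12.2 CPM in iNKT17-like cells (13 and 1 UMIs), 102.7 and 115.2 in Gzma-like cells (27 and 28 UMIs) and 81.2 and 75.8 in iNKT1-like cells.

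**Figure D4:**
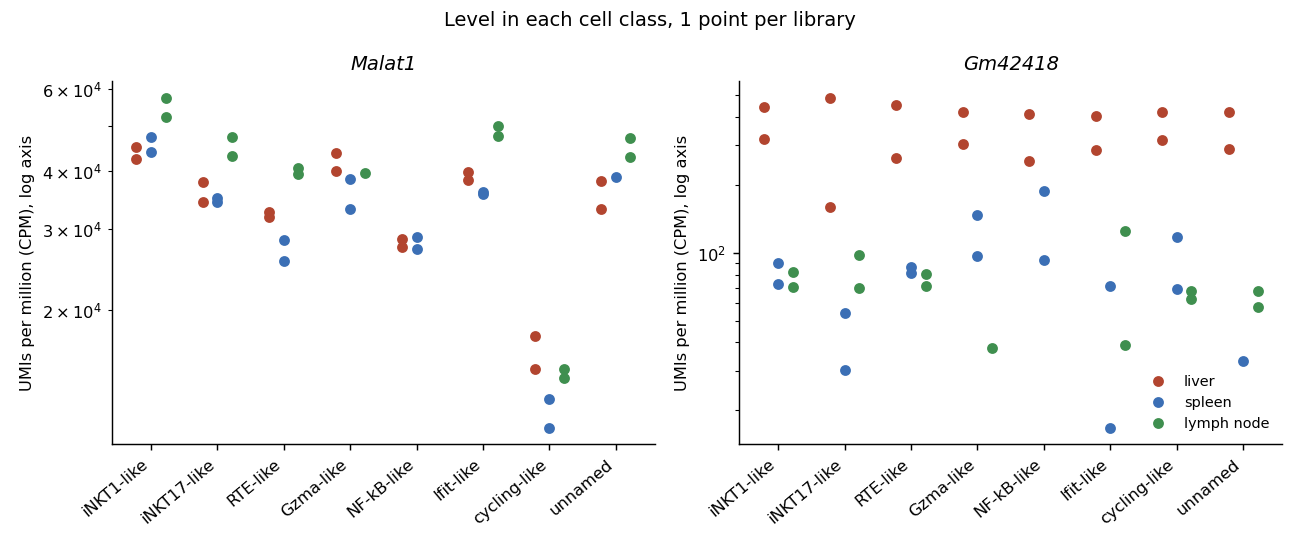
Malat1 (left) and Gm42418 (right) in CPM (log axis) in each class of cells, where each point is the sum of a class in 1 library, for classes with 20 or more cells in that library. Malat1 is lowest in cycling-like cells in all 6 libraries, and both liver points lie above every spleen and lymph node point drawn for Gm42418 in the same class. NF-kB-like cells have no lymph node point, and Gzma-like cells have 1.

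Genes of the pathways around these RNAs were taken from lists drawn up for this purpose, and were tested with edgeR over all 10172 genes with Benjamini-Hochberg adjustment. Between liver and spleen, 12.7% of all genes were called higher in liver and 13.0% lower. For liver against lymph node the shares were 18.0% and 19.6%, and for spleen against lymph node they were 7.99% and 10.3%. Of 31 other nuclear long noncoding RNAs listed, 15 were in the matrix and 11 could be tested. In liver against spleen 1 was higher and 4 lower, in liver against lymph node 1 higher and 3 lower, and in spleen against lymph node 3 higher and 4 lower. DESeq2 called 1, 2 and 3 of them in the same order. Miat, itself a nuclear RNA, was at 0.14 and 0.33 CPM in liver, 1.84 and 1.13 in the spleen and 5.99 and 4.45 in lymph node, and was called lower in liver than in lymph node (edgeR adjusted p 1.69e-06), with only 1 and 2 UMIs behind the liver values. Gm26532 was lower in liver than in lymph node (log2 fold -2.48, SE 0.38, edgeR adjusted p 1.55e-05) and Mir142hg, the host transcript of miR-142, lower in liver than in spleen (log2 fold -1.10, SE 0.21, edgeR adjusted p 7.34e-04).

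The main 3′ end of Malat1 is made without a usual poly(A) tail. RNase P cuts the nascent RNA just after the A-rich stretch printed above, and the released tRNA-like RNA is trimmed further, while the nuclear exosome degrades many noncoding transcripts. Of 31 genes of these nuclear RNA surveillance and tRNA-like processing steps, 28 could be tested. In liver against spleen 2 were higher and 9 lower, in liver against lymph node 4 higher and 2 lower, and in spleen against lymph node 4 higher and 0 lower. Rpp38, a subunit of RNase P, was lower in liver than in spleen (log2 fold -0.97, SE 0.19, edgeR adjusted p 3.76e-04), with 14.5 and 21.2 CPM against 32.5 and 33.0. The Rpp38 call was kept in 13 of 14 alternatives. Exosc3, of the exosome, was lower too (log2 fold -0.56, SE 0.12, edgeR adjusted p 0.00107). Exosc2, of the same complex, was higher in spleen than in lymph node (log2 fold 0.87, SE 0.16, edgeR adjusted p 1.19e-04). The share of this list called lower in liver against spleen was 32.1%, where it was 13.0% over all genes. With DESeq2, 0 were higher and 4 lower in that comparison, 2 higher and 1 lower in liver against lymph node, and 1 higher and 0 lower in spleen against lymph node.

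Of 27 nuclear speckle proteins, among which Malat1 RNA is found, all were tested. In liver against spleen 2 were higher and 4 lower, in liver against lymph node 6 and 8, and in spleen against lymph node 5 and 4. Clk1, a kinase of splicing factors, was lower in liver than in lymph node (log2 fold -1.0, SE 0.11, edgeR adjusted p 1.45e-08) and lower in spleen than in lymph node (log2 fold -0.95, SE 0.12, edgeR adjusted p 1.46e-07). Its level was 197 and 168 CPM in liver, 189 and 170 in the spleen and 364 and 337 in lymph node. The splicing factor U2af1 was lower in liver than in spleen (log2 fold -0.85, SE 0.13, edgeR adjusted p 3.10e-05), and the splicing factor Srsf3 was higher (log2 fold 0.61, SE 0.12, edgeR adjusted p 4.21e-04). The list thus held members of both directions, and for spleen against lymph node DESeq2 called 1 higher and 4 lower.

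All 29 paraspeckle proteins, which bind Neat1, were tested. In liver against spleen 4 were higher and 9 lower, in liver against lymph node 4 and 11, and in spleen against lymph node 0 and 1, while Neat1 itself had a wider gap between spleen and lymph node than in either other comparison. Cirbp, a cold-inducible RNA-binding protein, was at 139 and 151 CPM in liver, 302 and 325 in the spleen and 308 and 318 in lymph node. It was lower in liver than in spleen (log2 fold -1.19, SE 0.12, edgeR adjusted p 4.34e-09) and than in lymph node (log2 fold -1.17, SE 0.12, edgeR adjusted p 7.14e-10). The median log2 fold of the list was -0.06 in liver over spleen and -0.09 in liver over lymph node, against 0.02 and 0.01 over all genes tested.

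RNA polymerase I makes the precursor of the large ribosomal RNAs, and a set of nucleolar factors cuts and folds it. Of 26 genes of polymerase I transcription 24 were tested. Of these, 3 were higher and 3 lower in liver against spleen, 4 and 4 in liver against lymph node, and 1 and 0 in spleen against lymph node. DESeq2 called 5, 6 and 0 of them in the same order. Baz2a, a subunit of a complex that silences ribosomal genes, was higher in liver than in spleen (log2 fold 0.68, SE 0.15, edgeR adjusted p 0.00101) and than in lymph node (log2 fold 0.95, SE 0.15, edgeR adjusted p 7.05e-06). Of 59 rRNA processing factors tested, 5 were higher and 7 lower in liver against spleen, 12 and 2 in liver against lymph node, and 10 and 0 in spleen against lymph node, with median log2 folds of 0.03, 0.14 and 0.16. DESeq2 called fewer of them, 5, 7 and 4 in the same order. Ddx27, a helicase of ribosome assembly, was higher in liver than in lymph node (log2 fold 0.75, SE 0.13, edgeR adjusted p 3.66e-05), and Nop10, of the particles that modify rRNA, was lower in liver than in spleen (log2 fold -0.63, SE 0.13, edgeR adjusted p 0.00101). The Nop10 call was kept in 13 of 14 alternatives. Of 5 snoRNA host genes tested, 2 were higher in liver than in spleen, 2 than in lymph node, and none was lower, whereas DESeq2 called 0 and 1. Snhg20 was higher in spleen than in lymph node (log2 fold 1.05, SE 0.17, edgeR adjusted p 1.11e-05).

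Other rows to which reads of ribosomal RNA can be assigned were also listed, and 3 of the 11 in the matrix were tested. Of these, 2 were higher in liver against spleen, 2 were higher in liver against lymph node, and 1 was lower in spleen against lymph node. DESeq2 called 1, 1 and 0 in the same order. Gm26917, a noncoding row of this kind, was at 1109 and 925 CPM in liver, 472 and 335 in the spleen and 419 and 300 in lymph node. It was higher in liver than in spleen (log2 fold 1.25, SE 0.17, edgeR adjusted p 8.07e-05) and than in lymph node (log2 fold 1.44, SE 0.17, edgeR adjusted p 7.18e-06). Lars2, the gene of mitochondrial leucyl-tRNA synthetase, was higher in liver than in spleen (log2 fold 1.60, SE 0.38, edgeR adjusted p 0.00219), with 8.88 and 6.83 CPM against 2.62 and 2.26, but this call was lost with DESeq2.

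Of the 13 mitochondrial genes, 10 were lower in liver than in spleen and 0 higher, and 9 were lower and 2 higher in liver than in lymph node. In spleen against lymph node 4 were higher and 0 lower. The median log2 fold of the list was -0.55, -0.52 and 0.04 in this order. The subunit gene mt-Nd4l of respiratory complex I was lower in liver than in spleen (log2 fold -0.97, SE 0.12, edgeR adjusted p 2.84e-07). Genes of dissociation and the immediate early response, which respond to tissue handling, differed as well. Of 20, 7 were higher and 5 lower in liver against spleen, 3 and 14 in liver against lymph node, and 0 and 17 in spleen against lymph node. Fos was at 13.2 and 8.50 CPM in liver, 26.5 and 22.3 in the spleen and 563 and 588 in lymph node (liver over lymph node log2 fold -5.78, SE 0.16, edgeR adjusted p 1.88e-24). The heat shock gene Hspa1a was at 32.9 and 39.2 CPM in liver and 46.3 and 47.9 in lymph node, while 2 and 1 UMIs were counted in the spleen libraries. The part of handling in the levels of the 4 RNAs was not tested.

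The genes whose CPM followed each RNA most closely over the 6 libraries were sought among 5884 genes with a mean of 20 CPM or more. With 6 libraries of 3 organs many genes share a pattern, so these are named as a description. Rala (Pearson r 0.987) and Cd247 (0.981) came first for Malat1, Psap (0.996) and F2r (0.993) for Neat1, Arhgap30 (1.000) and Kbtbd11 (0.998) for Gm42418, and Smad4 and Sf3a1 (0.998 each) for AY036118. Across cells thinned to 1000 UMIs, Malat1 followed Ccl5, a chemokine of effector T cells, with a mean r of 0.19 (0.09 to 0.35 over the libraries) and Btg1, an inhibitor of proliferation, with 0.19. At the negative end, looked at after the values were seen, stood Stmn1, a microtubule regulator of dividing cells, with a mean r of -0.24 (-0.26 to -0.20) and Lgals1 with -0.20 (-0.38 to -0.09). For the other RNAs the highest mean r with any of 1808 genes was 0.03, which is no finding in counts this sparse.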

How the data were processed

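Single cells had been captured on the 10x Chromium 3′ v2 chemistry, and the authors deposited UMI counts per gene and barcode, with gene and barcode tables (other values). The submitters' processing notes name Cell Ranger 3.1.0, Seurat and mm10. The annotation release and strand setting are not given in the sources used here. Kept were barcodes with 300 to 4000 genes and no more than 15% of their UMIs from mitochondrial genes (16532 of 16587). Library totals ran from 4758138 to 10870838 UMIs, and exact 95% intervals cover counting error only. UMIs were summed per library and fitted with edgeR 4.0.16 (filterByExpr, TMM, quasi-likelihood test, Benjamini-Hochberg threshold 0.05; R 4.3.3) over all organs. Cells were clustered with scanpy 1.11.5 and leidenalg 0.10.2 at resolution 0.5, doublets being left out in an alternative only (334 cells). The fit was tested on simulated data, but the outcome is not given here, so nothing is read from it. The 2 genes per list and comparison with the largest change past the threshold were eligible to be named. The 4 RNAs and the gene lists were chosen with earlier results of these data known. Replicate numbers were not treated as pairs. Alternatives (DESeq2 1.42.0, other filters and scalings, cells within a window of depth, libraries left out) are given after the report. With 2 libraries per organ, p-values measure only the spread between these libraries.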

Additional observations from a re-analysis of the deposited data

How the results depend on the processing

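Of 358 alternative values, 333 lay within the spread between replicates of the main value (counts of genes within 1.5 times), and 25 did not. In all 12 changed sign, 9 of them within that spread, namely 2 of Malat1 in liver over spleen and, against the mitochondrial share, 3 of Gm42418 and 4 of AY036118. The genes called by edgeR (2620, 3827 and 1865 for liver over spleen, liver over lymph node and spleen over lymph node) became 1331, 2345 and 1023 with DESeq2, and 1128 and 2171 for the first 2 comparisons in cells with 1500 to 2500 UMIs. Leaving out 1 library gave 1372 to 2416, 2409 to 4033 and 1026 to 1935, lowest without the first liver library (1372; 1373 without the second spleen library) and without the second lymph node library (2409 and 1026). In cells with 1500 to 2500 UMIs, which in liver were the shallower ones, the log2 fold of Malat1 in liver reversed, to 0.22 over spleen and 0.090 over lymph node. In the same cells that of Neat1 in liver over lymph node was -0.43 and that of AY036118 in liver over spleen 3.61. In iNKT1-like cells alone Neat1 was 1.17 in liver over spleen and -0.37 over lymph node. With clusters at resolution 0.3, iNKT1-like Malat1 was 0.11 in liver over spleen (reversed) and -0.18 over lymph node, Neat1 0.29 in liver over spleen and -0.47 in spleen over lymph node, and AY036118 -1.10 in spleen over lymph node. These values compare other cells, as that class then held 209 and 138 spleen cells, against 1851 and 1893 at resolution 0.5. A cluster with 2335 and 2338 spleen cells had no name at resolution 0.3. Between the top and bottom 10% of cells by UMIs the log2 ratio was -1.46 for Malat1, -0.58 for Neat1 and -0.98 for AY036118, and by mitochondrial share -0.30 for Malat1. It was -0.63 for Malat1 by UMIs in iNKT1-like cells. The cause of these shifts was not tested. Of 779 refits of the named list genes 695 kept the call, 84 lost it and 0 reversed. The counts of genes called in a list were less stable, with 324 of 420 within 1.5 times the main count.

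With the replicate number as a block, 3033, 4137 and 2112 genes were called. Same-numbered libraries deviated together only weakly (correlations 0.085, 0.0826 and 0.0678 over genes), so the numbers were not taken as pairing.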
